A study of Bos taurus with 14 samples.

Results

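bta-miR-221 and bta-miR-222 are the mature products of a pair of neighbouring precursors, and they were taken by name from the deposited tables, as 2 of the 341 miRNAs that were retained for testing. Each has 1 entry in the count table and 1 in the table of counts per 1e6 counts (CPM), so no choice between precursor entries was needed. They were measured by small RNA sequencing of peripheral white blood cells (PWBC), the mixed leukocytes of blood, with 1 library from each of 14 Angus-Simmental crossbred heifers. Blood was drawn at weaning, before any heifer was bred, and no group received a treatment of its own. All heifers later went through the same estrus synchronization and artificial insemination (AI), and were then exposed to fertile bulls. The groups were the 7 fertile heifers (FH), which became pregnant to AI, and the 7 subfertile heifers (SFH), which became pregnant neither to AI nor to the bulls. Heifers pregnant to natural breeding were not included. The groups were therefore named from a later outcome, and every heifer is a separate animal. Both groups were chosen to be alike in birth age, age at weaning and body weight.

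miR-221 and miR-222 share the seed, the stretch at the 5′ end of a miRNA that pairs with target mRNAs, and in mammals they are cut from a common primary transcript of the X chromosome. Among their best described targets are *KIT*, the receptor for stem cell factor on blood progenitors, and *CDKN1B*, which encodes the cell cycle inhibitor p27. They are known to be abundant in early blood progenitors and to fall as red cells mature, and they are also found in lymphocytes and myeloid cells. RefSeq's annotation of ARS-UCD2.0, a newer cattle assembly, places the precursor genes *MIR222* and *MIR221* one after the other on the X chromosome with no gene between them. Both lie inside the long non-coding RNA gene *LOC132344329*, and the nearest protein-coding genes on either side are *ZNF674* and *DIPK2B*. No coordinates are given, because the counts were made on another assembly.

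The libraries held 1754971 to 5468341 counts on mature miRNAs (median 2870197). The 3 deepest were the FH heifers 27, 25 and 29. Leukocyte miRNAs were abundant in both groups, with 65601 ± 15939 CPM of bta-miR-150 (lymphocytes) in FH and 65247 ± 21033 CPM in SFH, and 16435 ± 4122 and 20291 ± 4630 CPM of bta-miR-223 (myeloid cells), each a mean ± SD of 7 heifers. The platelet and endothelial bta-miR-126-3p was scarce, at 35.5 ± 16.8 CPM in FH and 29.0 ± 13.6 CPM in SFH. Of the erythroid markers, bta-miR-144 had no count in any of the 14 heifers, whereas bta-miR-451 was present in all of them. In PWBC, fewer cells of a type and less RNA per cell cannot be told apart.

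Both miRNAs were among the better measured of the 341. By mean CPM, bta-miR-221 ranked 25th, with a rank of 15 to 30 in single heifers, and bta-miR-222 ranked 52nd, with a rank of 41 to 57. Together they took 1.20 ± 0.29% of the retained counts of FH heifers and 1.25 ± 0.32% of those of SFH heifers (SD over 7 heifers). The smallest count of either miRNA was 4054, for bta-miR-222 in FH heifer 22, and its 95% exact Poisson interval was 3930 to 4181 counts. Counting error was therefore at most 3.13% of a value, which leaves out any spread added by PCR, as no counting of molecular identifiers is described.

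In FH, bta-miR-221 ran from 7535 CPM in heifer 27 to 13100 CPM in heifer 25, with a median of 8226 CPM. In SFH it ran from 7171 CPM in heifer 30 to 14721 CPM in heifer 23, with a median of 8811 CPM. The ranges overlapped almost completely. Most heifers of either group lay near the lower end, and FH heifers 25 and 20 (11228 CPM) and SFH heifers 23 and 32 (11394 CPM) stood above the others. FH heifers averaged 9206 ± 2111 CPM and SFH heifers 9875 ± 2500 CPM (SD over 7 heifers).

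In FH, bta-miR-222 ran from 2075 CPM in heifer 31 to 4307 CPM in heifer 25, with a median of 2536 CPM. In SFH it ran from 1836 CPM in heifer 28 to 4032 CPM in heifer 23, with a median of 2603 CPM. The same heifers, FH 25 and SFH 23, were the highest for both miRNAs. FH heifers averaged 2774 ± 783 CPM and SFH heifers 2584 ± 721 CPM (SD over 7 heifers), a difference smaller than either SD.

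**Figure D1:**
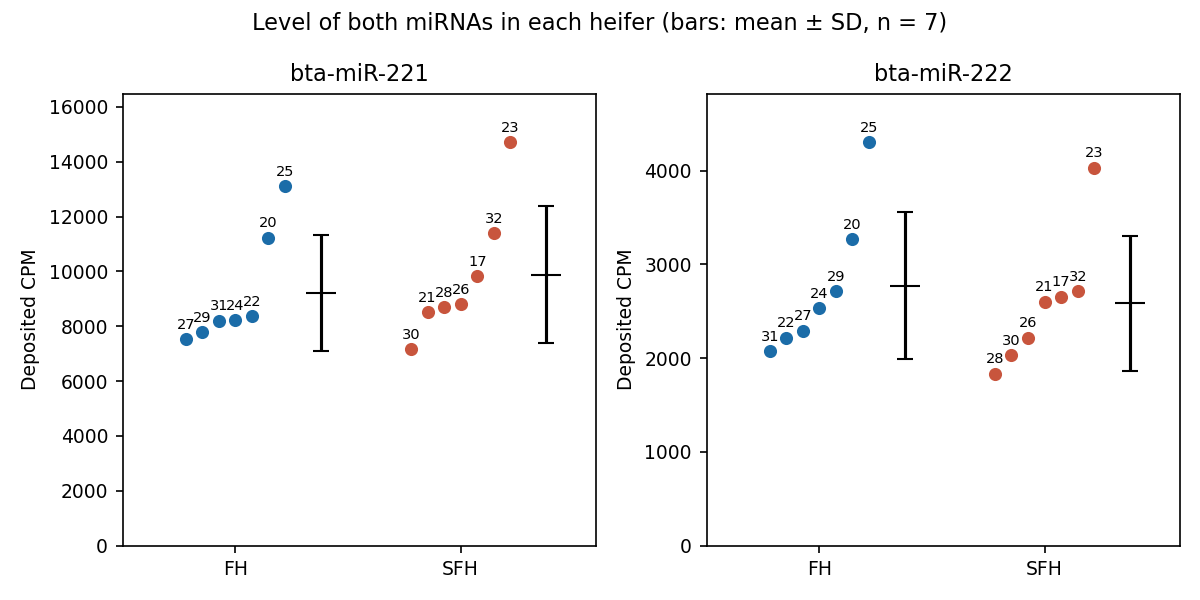
Deposited CPM of bta-miR-221 (left) and bta-miR-222 (right) on linear axes from 0. Each point is 1 heifer with its number, and the black bars give the mean ± SD of 7 heifers per group. The groups overlap for both miRNAs, and FH heifer 25 and SFH heifer 23 are the highest of their groups in both panels.

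A difference between SFH and FH was not detected for either miRNA. The log2 fold change (SFH relative to FH) from edgeR's quasi-likelihood test was 0.02 for bta-miR-221 (standard error 0.17) and −0.19 for bta-miR-222 (standard error 0.20). The Benjamini-Hochberg adjusted p-values of the same test over the 341 miRNAs were 0.977 and 0.947. A miRNA passed when its log2 fold change was 0.5 or more in either direction with an unadjusted p-value no higher than 0.05. This was true of 0 of the 2 members and of 3.81% of the 341 miRNAs (13 miRNAs). At any fold change and a p-value no higher than 0.05 the numbers were 0 of the 2 members and 5.87% of the 341, and DESeq2 and limma-voom also gave neither member. At an adjusted p-value no higher than 0.05, edgeR gave 0 of the 341 miRNAs, limma-voom 0 and DESeq2 2.

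**Figure D2:**
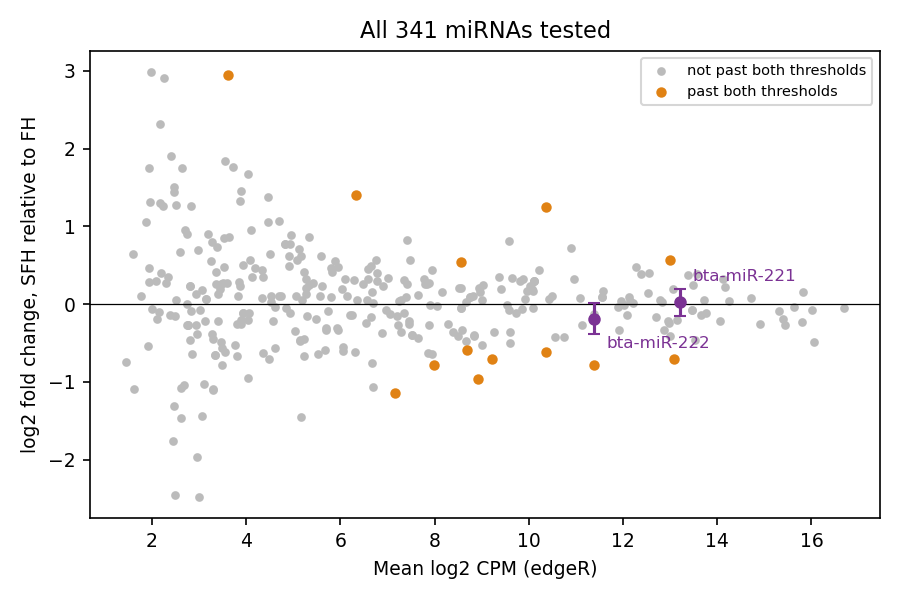
Log2 fold change (SFH relative to FH) against the mean log2 CPM of the 341 miRNAs in edgeR. Each point is 1 miRNA, those past both thresholds are orange, and the purple bars are the standard errors of bta-miR-221 (0.17) and bta-miR-222 (0.20), which lie at 0.02 and −0.19 among the more abundant miRNAs.

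The exact two-sided permutation test over all 3432 arrangements of the heifers was used on log2 values, where CPM normalized by TMM (trimmed mean of M-values) were increased by 0.5 before taking the log2. The difference in mean log2 value (SFH minus FH) was 0.02 for bta-miR-221, with a 95% interval of −0.33 to 0.38 (exact permutation test, p = 0.877, n = 7 per group). As folds, the interval runs from 0.793 to 1.30. For bta-miR-222 the difference was −0.17, with an interval of −0.61 to 0.27 (exact permutation test, p = 0.413, n = 7 per group), or 0.655 to 1.20 as folds. Differences within these intervals were not rejected with 7 heifers per group. The summed level of both miRNAs differed by −0.02 on the log2 scale, with an interval of −0.38 to 0.34 (exact permutation test, p = 0.913, n = 7 per group). By this test, 6.16% of the 341 miRNAs were at or under an unadjusted p-value of 0.05.

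The ratio of the pair varied less than either level. There were 3.62 ± 0.494 counts of bta-miR-221 for each count of bta-miR-222 (SD, n = 14), and the highest ratio was 1.65 times the lowest. For comparison, the highest CPM was 2.05 times the lowest for bta-miR-221 and 2.35 times for bta-miR-222. This is a ratio of counted reads, and how efficiently each miRNA was ligated into the library was not measured. In FH the ratio ran from 2.87 in heifer 29 to 3.95 in heifer 31, with a median of 3.29. In SFH it ran from 3.27 in heifer 21 to 4.74 in heifer 28, with a median of 3.70. The groups overlapped, with 6 of the 7 SFH heifers above the FH median and only SFH heifers 28, 32 (4.20) and 26 (3.98) above every FH heifer.

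FH heifers had a mean log2 ratio of 1.74 ± 0.16 and SFH heifers one of 1.94 ± 0.18 (SD over 7 heifers). The difference of 0.20, or 1.15-fold, had a 95% interval of −0.0032 to 0.40 and did not pass the threshold (exact two-sided permutation test, p = 0.0524). Adjusted over the 4 values compared in this way (each miRNA, the sum and the ratio), its Benjamini-Hochberg p-value was 0.210. With each heifer left out in turn the difference stayed between 0.15 and 0.24, and the exact permutation p-value was at most 0.05 in 4 of the 14 cases, those without FH heifers 22 or 31 or SFH heifers 21 or 30.

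FH heifers 25, 27 and 29, the 3 deepest libraries, had 3 of the 5 lowest ratios (3.04, 3.29 and 2.87). Across the 14 heifers the log2 ratio had Pearson's r = −0.39 (permutation p = 0.163) and Spearman's rho = −0.35 (permutation p = 0.213) with the log2 total count, and r was −0.21 once the 2 heifers of most extreme depth were left out. Within FH r was −0.47 and within SFH −0.17. With the within-group slope on depth removed, the difference between the groups was 0.17 (permutation test over all arrangements, p = 0.0629). Because the slope was fitted with the true groups and not refitted for each arrangement, this test is approximate. These relations with depth were computed after the values had been seen. For bta-miR-221 and bta-miR-222 the r with depth was 0.06 and 0.25, and over the 3 measures the smallest Benjamini-Hochberg adjusted permutation p was 0.488 for r.

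**Figure D3:**
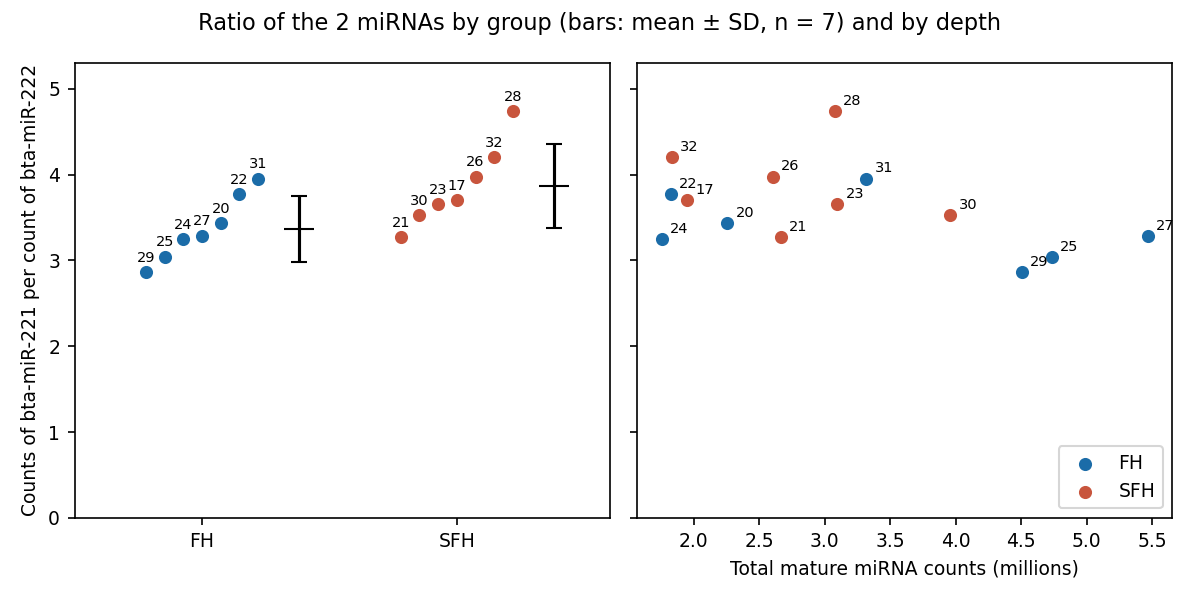
Counts of bta-miR-221 per count of bta-miR-222 in each heifer, by group (left; black bars, mean ± SD of 7 heifers) and against the total of mature miRNA counts (right). The SFH heifers run from 3.27 to 4.74 and the FH heifers from 2.87 to 3.95, and the 3 deepest FH libraries lie at 3.29 or lower.

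The levels of the pair rose and fell together from heifer to heifer. Over the 14 heifers, the log2 values of bta-miR-221 and bta-miR-222 had Pearson's r = 0.86 (permutation p = 0.00021) and Spearman's rho = 0.78 (permutation p = 0.00164). Adjusted over the 3 sets of heifers examined, these p-values were 0.00063 and 0.00492. With the 2 heifers whose bta-miR-221 was farthest from its median left out, r was 0.65 (permutation p = 0.0217). With the values centred on the mean of each group, r was 0.90.

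In FH alone r was 0.94 (exact permutation p = 0.00615) and rho was 0.86 (exact permutation p = 0.0238). In SFH alone r was 0.85 (exact permutation p = 0.0284) and rho was 0.54 (exact permutation p = 0.236). The SFH value rested on heifer 23, the highest of its group for both miRNAs. Without that heifer r in SFH was 0.49 (exact permutation p = 0.328), and with the 2 farthest from the median left out it was 0.37 (exact permutation p = 0.567). Without heifer 30 the r in SFH was 0.85 but its exact permutation p was 0.0528. In FH, leaving out the 2 farthest heifers gave r = 0.90 (exact permutation p = 0.0833). The difference in r (SFH minus FH) was −0.09. It lay within what rearranging the heifers gives after centring the values on each group mean (two-sided permutation test over all arrangements, p = 0.490). Because of the centring this test is approximate.

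**Figure D4:**
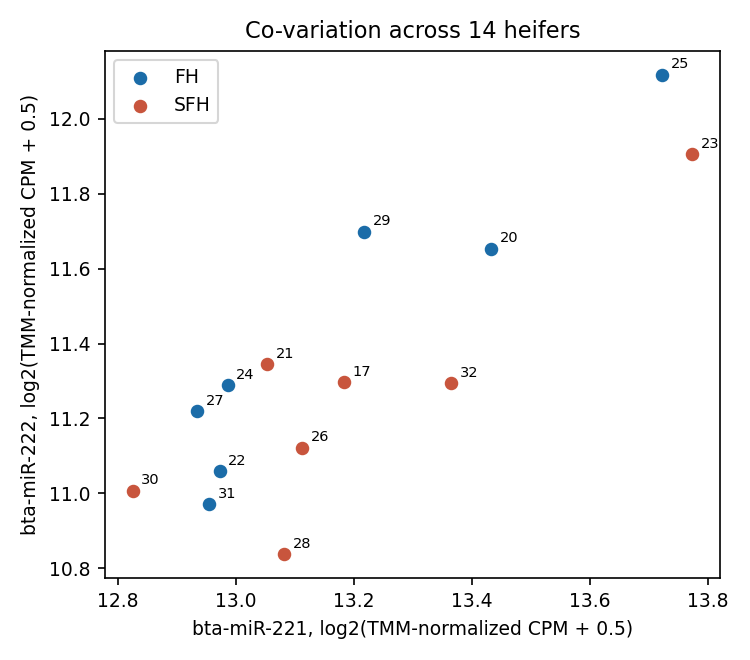
Log2(TMM-normalized CPM + 0.5) of bta-miR-222 against that of bta-miR-221, with 1 numbered point per heifer (FH blue, SFH red). The 14 points rise together (r = 0.86), with FH heifer 25 and SFH heifer 23 at the upper end, and SFH heifer 28 lies lowest for bta-miR-222.

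Among the 196 miRNAs with at least 10 counts in every heifer, bta-miR-221 had the highest rho with bta-miR-222. In the other direction, bta-miR-222 ranked 2nd for bta-miR-221, after bta-miR-130b (rho 0.79, r 0.67). A rho of at least 0.78 was found in 0.560% of the 19110 pairs among these miRNAs, whose median rho was −0.0022. That share includes names with the same values in every heifer, such as bta-miR-23b-3p and bta-miR-10174-3p. These rhos are given as a description, since all miRNAs of a heifer come from the same library and share its total.

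After bta-miR-222, the miRNAs most like bta-miR-221 were bta-miR-23a (rho 0.69), bta-miR-2284aa and bta-miR-2284z (both 0.69). The last 2 have identical counts in every heifer and are a single measurement. bta-miR-23a is in the myeloid list, whose other members, bta-miR-223 and bta-miR-27a-3p, had a rho of 0.34 and −0.40 with bta-miR-221. After bta-miR-221, those most like bta-miR-222 were bta-miR-6529a (rho 0.77), bta-miR-1306 (0.76), bta-miR-191 (0.75) and bta-miR-2284aa (0.75). Of these, bta-miR-1306 was itself past both thresholds in edgeR and had a fold change of −0.58 on the log2 scale (standard error 0.28). Its Benjamini-Hochberg adjusted p-value from edgeR's quasi-likelihood test was 0.828. At the other end was bta-miR-192, with rho = −0.88 and r = −0.90 to bta-miR-222, and it was named after its value was seen.

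miRNAs cut from a common transcript need not keep a fixed ratio, so the pair was set beside other neighbouring miRNAs. Of 14 other pairs named for this purpose, 11 had both miRNAs among the 341 tested. The precursor genes lay within 10 kb of each other in ARS-UCD2.0 for 10 of the 11, all but bta-miR-532 and bta-miR-660. For bta-miR-29b and bta-miR-194 that annotation holds 2 precursor genes each, so their counts can include a second locus, whereas bta-miR-221 and bta-miR-222 have 1 each. The log2 ratio of bta-miR-221 to bta-miR-222 had an SD of 0.19 over the 14 heifers, the lowest of the 12 pairs, and their rho of 0.78 was the highest. In the other 11 pairs the SD ran from 0.27 to 2.07 (median 0.43) and rho from −0.60 to 0.59 (median 0.35).

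The nearest pair in the SD of the ratio was bta-miR-192 and bta-miR-194, at 0.27, with a rho of 0.59. Next came bta-miR-17-5p and bta-miR-20a of the miR-17-92 cluster, at 0.28, with a rho of 0.49, and bta-miR-15a and bta-miR-16a, at 0.28, with a rho of 0.59. Of the 11 pairs, 3 had a negative rho, including bta-miR-23a and bta-miR-27a-3p (−0.60) and bta-miR-191 and bta-miR-425-5p (−0.23). The widest was bta-miR-195 and bta-miR-497, whose smallest count was 0, so that counting error enters its SD of 2.07. The order of the pairs is a description, and no test was made of it.

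**Figure D5:**
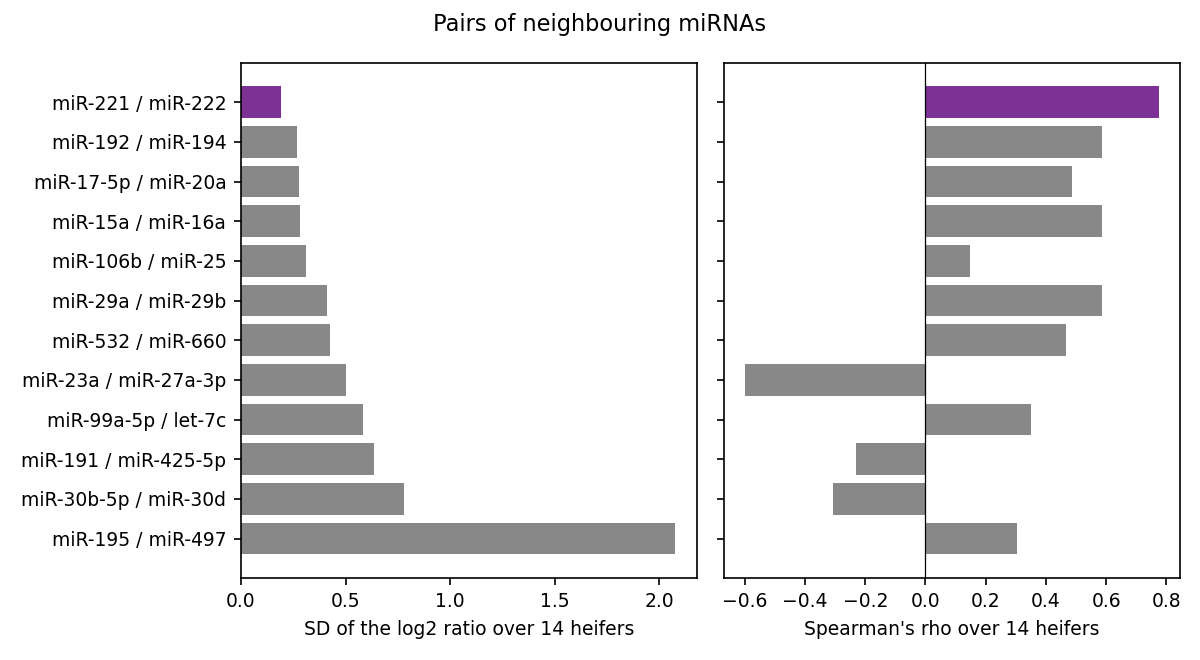
SD of the log2 ratio (left) and Spearman's rho (right) over 14 heifers for 12 pairs of neighbouring miRNAs, ordered by the SD. The bar of bta-miR-221 and bta-miR-222 (purple) is the shortest on the left, at 0.19, and the longest positive bar on the right, at 0.78.

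The levels were also compared with 6 lists of miRNAs that mark blood cells, each summed per heifer. Of the 18 relations (bta-miR-221, bta-miR-222 and their ratio with each list), none had a Benjamini-Hochberg adjusted permutation p of at most 0.05, and the smallest was 0.142 for r and 0.468 for rho. Unadjusted, 2 had such a p for r (4 on the deposited CPM). bta-miR-222 was lower where the sum of the leukocyte miRNAs bta-miR-142-5p and bta-miR-142-3p was higher, with r = −0.68 (permutation p = 0.00790) and rho = −0.52 (permutation p = 0.0593, n = 14). That sum was nearly all bta-miR-142-5p, with a mean of 10389 CPM in FH and 14141 CPM in SFH, beside 152 and 143 CPM of bta-miR-142-3p. The r of bta-miR-222 with this list was −0.61 in FH, −0.71 in SFH, and −0.37 when the 2 heifers most extreme for that list were left out. By rank the groups were less alike, with a rho of −0.14 in FH and −0.82 in SFH. The other was bta-miR-221 with the platelet and endothelial list, with r = −0.63 (permutation p = 0.0180) and rho = −0.45 (permutation p = 0.111, n = 14), but that list was at 4.52 to 68.3 CPM. Within the groups its r was −0.42 in FH and −0.84 in SFH, and leaving out the 2 farthest heifers gave −0.62.

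With the lymphocyte list (bta-miR-150, bta-miR-342, bta-miR-181a and bta-miR-181b) the r was −0.06 for bta-miR-221 and −0.08 for bta-miR-222. With the myeloid list (bta-miR-223, bta-miR-23a and bta-miR-27a-3p) it was 0.49 and 0.45 (permutation p = 0.0740 and 0.103, n = 14), and rho was 0.53 and 0.44. The largest part of this sum was bta-miR-23a, with a mean of 25862 CPM in FH and 28586 CPM in SFH. bta-miR-223 had 16435 and 20291 CPM. Singly, bta-miR-23a had a rho of 0.69 with bta-miR-221 and 0.53 with bta-miR-222, and bta-miR-223 one of 0.34 and 0.31. Within the myeloid list only bta-miR-27a-3p had a negative rho, at −0.40 with bta-miR-221 and −0.44 with bta-miR-222. With the erythroid list (bta-miR-451 and bta-miR-486) r was −0.30 and −0.26, and −0.04 and −0.09 without the 2 farthest heifers. Within the groups r differed in sign, with 0.46 in FH and −0.70 in SFH for bta-miR-221 and 0.22 and −0.54 for bta-miR-222. The rho was 0.29 in FH and −0.57 in SFH for bta-miR-221, and 0.0 and −0.36 for bta-miR-222. The highest SFH heifer had 9236 CPM of this list, beside an SFH median of 2416 CPM. The list of miRNAs induced in activated leukocytes held bta-miR-21-5p, bta-miR-155, bta-miR-146a, bta-miR-146b and bta-miR-132. Its sum was mostly bta-miR-21-5p, with a mean of 53409 CPM in FH and 62830 CPM in SFH, beside 8522 and 7532 CPM of bta-miR-155. With this list r was −0.50 and −0.51, and −0.06 and 0.02 without the 2 farthest heifers. For bta-miR-221 this r was −0.92 in FH and 0.10 in SFH, and for bta-miR-222 −0.75 and 0.02. Whether these within-group values differ between FH and SFH was not tested. The ratio had r between −0.13 and 0.50 with the 6 lists. Between SFH and FH, 0 of the 18 miRNAs tested from these lists passed both thresholds, beside 3.81% of all 341, a share that leaves fewer than 1 of 18.

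Other miRNAs described as acting on *KIT* or *CDKN1B* were examined as a list of 10, of which 8 were tested. The other 2, bta-miR-193a-3p and bta-miR-196a, had no count in 13 and 12 of the 14 heifers. Of the 8, 0 passed both thresholds, beside 3.81% of all 341, and 1 was at or under an unadjusted p-value of 0.05, beside 5.87%. These counts are near what those shares give in 8 miRNAs. The 1 miRNA was bta-miR-24-3p, with 5042 ± 1106 CPM in FH heifers and 7038 ± 1672 CPM in SFH heifers (SD over 7 heifers). Its log2 fold change was 0.40 (standard error 0.19), and edgeR's quasi-likelihood test gave it an adjusted p-value of 0.828. The most abundant of the list, bta-miR-181a, which acts in lymphocyte development, had a log2 fold change of 0.33 (standard error 0.19). bta-miR-148a had 0.04 (standard error 0.24) and bta-miR-152 had 0.27 (standard error 0.22). The median log2 fold change of the 8 was 0.24, beside 0.06 for all 341 miRNAs. Their summed level ran from 19433 to 36234 CPM in FH (median 22553) and from 22652 to 35785 CPM in SFH (median 32381), so that the groups overlapped while the SFH median was higher. The mean log2 of the summed TMM-normalized CPM was 0.31 higher in SFH, and most of the difference in CPM lay in bta-miR-181a and bta-miR-24-3p.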

How the data were processed

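The members and lists were chosen with earlier results of these data known. The authors trimmed reads with Cutadapt, aligned them with miRDeep2 to ARS-UCD1.2 and miRBase, and deposited the raw, unnormalized counts of each mature miRNA and precursor entry. Their deposited CPM of 341 miRNAs equal the counts divided by the total over those miRNAs in all 14 heifers (relative tolerance 1e-06). Unless another scale is named, CPM are these values.

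Where a name had several entries, that with the highest total was used. The miRNAs reaching 1 CPM in 7 or more heifers were fitted with edgeR 4.0.16 (TMM, quasi-likelihood, group as the only term) in R 4.3.3. DESeq2 1.42.0 and limma 3.58.1 were alternatives. Standard errors were taken from the fold change and F statistic. Exact two-sided permutation tests were used for single values, and their inversion gave the intervals. Correlations used exact pairings in 7 heifers and 100000 resamples in 14, with Python 3.11.15 and scipy 1.17.1. The fits were tested on simulated data. No pair of heifers had identical counts. Named miRNAs were the members, the marker and target lists, the neighbouring pairs and, per member, the 5 miRNAs of highest rho. Sequences were not used here.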

Additional observations from a re-analysis of the deposited data

How the results depend on the processing

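Neither miRNA reached a p-value of at most 0.05 in edgeR, DESeq2 or limma-voom under any scaling, filter or covariate tried, or without any single heifer. The sign of bta-miR-221 was not fixed: its log2 fold change was −0.049 with every precursor entry kept and −0.088 to 0.19 without 1 heifer each, and its permutation difference −0.071 to 0.12. For bta-miR-222 these ranges were −0.32 to 0.014 (the positive value without FH heifer 25) and −0.28 to −0.057. The summed level differed by 0.052 on the deposited CPM and by −0.12 to 0.079 without 1 heifer each, and the log2 ratio by 0.15 to 0.24. The number of miRNAs past both thresholds was 23 in limma-voom, 126 without a CPM filter, 20 with every precursor entry kept, and 11 to 21 without 1 heifer each (21 without FH heifer 24, 20 without FH heifer 27). The cause was not tested.

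The r between the miRNAs was 0.80 to 0.89 over 13 heifers, 0.86 to 0.96 over 6 FH heifers and 0.49 to 0.92 over 6 SFH heifers. It no longer passed in FH without the 2 farthest heifers (0.90), or in SFH without them (0.37) or as rho (0.54). Of the 18 relations with marker lists, 6 changed sign under an alternative: without the 2 farthest heifers, r became 0.0096 (bta-miR-221), 0.027 (bta-miR-222) and −0.038 (ratio) with the lymphocyte list, and 0.019 (bta-miR-222) and −0.10 (ratio) with the activation list, and on the deposited CPM 0.19 for the ratio with the myeloid list. On the deposited CPM, 2 further relations reached an unadjusted permutation p under 0.05, bta-miR-221 with the myeloid list (r = 0.58) and the ratio with the pan-leukocyte list (r = 0.60). No paired analysis was possible because the labels name no pairs of FH and SFH heifers.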
